A study of Mus musculus with 4 samples.

Results

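Clustered histone genes, the genes named Hist1 to Hist4 after the 4 genomic clusters that hold them, were compared between mouse embryonic stem (ES) cells with and without a hairpin against Tex10. They were taken as every row of the expression tables whose gene name starts with Hist and a digit. Of 68 such rows, those that shared a name were summed, which left 63 of the 22739 gene names in the tables. By histone type they comprised 5 linker histone H1 genes, 16 H2A, 15 H2B, 12 H3 and 13 H4 genes, 1 H2B pseudogene, and 1 row that names Hist1h1e, Hist1h2be and Hist1h2bf together and cannot be divided between them. The cells were of the CCE line, derived from the 129SV mouse strain, and were kept on gelatin-coated dishes with 15% serum and leukemia inhibitory factor (LIF), which holds ES cells undifferentiated. The 2 control libraries came from cells with a short hairpin RNA against luciferase (shLuci), which has no counterpart in the mouse genome, and the other 2 from cells with a hairpin against Tex10 (shTex10). The design text of the series calls the 2 libraries of a group biological replicates, and the time after the hairpins were introduced is not given in the sources used here. Each label names 1 hairpin, so effects of that hairpin other than through Tex10 cannot be told apart from those of Tex10 depletion.

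Histones H2A, H2B, H3 and H4 form the octamer around which DNA is wrapped, and H1 binds the linker DNA between nucleosomes. Most genes of the clusters are intronless and are transcribed mainly in S phase, when new nucleosomes are needed. Their mRNAs typically end just after a conserved stem-loop in place of a poly(A) tail; the stem-loop is bound by the stem-loop binding protein SLBP and is cut by a complex guided by U7 small nuclear RNA. ES cells cycle rapidly and have a large share of cells in S phase. The libraries here were made from poly(A)-selected RNA, so the values cover only histone RNA that was retained in that selection, and they are not a measure of total histone mRNA. Whether that RNA carried a poly(A) tail was not tested. In bulk RNA, fewer cells of a type and less RNA per cell cannot be told apart.

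The stem-loop is shown first because it is the feature that sets these mRNAs apart from others. In GENCODE M21 transcripts (GRCm38), the letters GGNNNNTTTNNNNNCC, with 6 paired bases in the stem and 4 bases in the loop, were found in 42 of 64 clustered histone genes with a protein-coding transcript, against 49 of 58725 transcripts of other genes (0.0834%). Only the transcript strand was searched. The following examples, one for each form found, are given from 5′ to 3′ with up to 5 flanking bases, and the capitals mark the stem-loop.
Hist1h2ag: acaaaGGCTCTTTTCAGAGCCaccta
Hist1h3c: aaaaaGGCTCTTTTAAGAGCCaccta
Hist2h2ac: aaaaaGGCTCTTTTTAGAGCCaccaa
Hist1h4m: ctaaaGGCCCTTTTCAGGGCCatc
Hist1h4i: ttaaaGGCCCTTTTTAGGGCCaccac
Hist1h4b: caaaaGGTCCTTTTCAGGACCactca
The Hist1h2ag form was found in 8 H2A, 8 H2B, 5 H3 and 3 H1 genes. The Hist1h3c form differs in the loop and was shared by 3 H3 genes (Hist1h3c, Hist1h3e and Hist1h3f), 2 H2B genes (Hist1h2bb and Hist1h2bk) and the testis H1 gene Hist1h1t. H4 genes had forms of their own, with the Hist1h4m letters in 7 genes, the Hist1h4i letters in 2 (also Hist2h4) and the Hist1h4b letters in 2 (also Hist1h4j). The form in Hist2h2ac was found in that gene alone among the clustered histone genes.

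Promoters are shown because members of a type and divergent neighbours share elements in them. All 65 gene names matched a RefSeq gene by synonym, and 59 had a promoter window of 300 bases, most of it before the transcript's start, in RefSeq's GRCm38.p6 annotation. Short motifs were searched on both strands and are in capitals. ATTTGCAT is the octamer bound by OCT factors. CCAAT is the CCAAT box and TATAAA the TATA box. GGTCCG is the core of an H4-specific element. AAACACA is the H1 box. The first window is that of Hist1h4i, the gene with the highest level, at chr13:22041313-22041612 on the minus strand. The second is that of Hist1h4b, at chr13:23756687-23756986 on the plus strand. The third belongs to Hist1h3c, at chr13:23745472-23745771 on the minus strand. The last 2 belong to Hist1h2bg, at chr13:23571150-23571449, and Hist1h2bj, at chr13:22042948-22043247, both on the plus strand and each divergent to an H2A gene.
Hist1h4i: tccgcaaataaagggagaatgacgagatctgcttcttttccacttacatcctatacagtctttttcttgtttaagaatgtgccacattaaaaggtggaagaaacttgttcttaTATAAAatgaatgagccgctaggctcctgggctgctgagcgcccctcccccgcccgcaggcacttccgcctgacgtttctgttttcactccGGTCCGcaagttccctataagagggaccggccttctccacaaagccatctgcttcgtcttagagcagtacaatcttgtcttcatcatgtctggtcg
Hist1h4b: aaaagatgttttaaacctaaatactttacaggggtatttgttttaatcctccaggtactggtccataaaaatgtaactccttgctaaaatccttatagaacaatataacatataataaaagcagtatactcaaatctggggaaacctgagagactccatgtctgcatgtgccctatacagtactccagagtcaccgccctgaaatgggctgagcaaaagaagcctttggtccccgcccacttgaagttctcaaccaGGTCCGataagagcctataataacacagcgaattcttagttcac
Hist1h3c: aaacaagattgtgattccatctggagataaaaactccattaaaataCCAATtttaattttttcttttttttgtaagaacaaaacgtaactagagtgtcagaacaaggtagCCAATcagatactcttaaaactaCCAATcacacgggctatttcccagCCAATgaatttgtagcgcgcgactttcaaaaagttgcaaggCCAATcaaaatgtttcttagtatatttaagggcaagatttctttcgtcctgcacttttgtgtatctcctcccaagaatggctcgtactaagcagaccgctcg
Hist1h2bg: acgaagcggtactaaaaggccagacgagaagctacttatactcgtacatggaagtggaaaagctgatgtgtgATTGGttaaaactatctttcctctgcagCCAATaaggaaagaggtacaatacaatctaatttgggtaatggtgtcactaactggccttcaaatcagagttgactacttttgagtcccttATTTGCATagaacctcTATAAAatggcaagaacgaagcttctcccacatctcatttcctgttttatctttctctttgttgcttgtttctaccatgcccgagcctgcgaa
Hist1h2bj: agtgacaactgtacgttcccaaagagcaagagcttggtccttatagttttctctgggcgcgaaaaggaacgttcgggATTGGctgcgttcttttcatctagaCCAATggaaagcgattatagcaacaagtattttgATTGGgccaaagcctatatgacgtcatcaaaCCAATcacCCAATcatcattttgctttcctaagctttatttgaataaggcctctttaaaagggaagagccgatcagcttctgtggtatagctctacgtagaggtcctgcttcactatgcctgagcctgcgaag
GGTCCG was found in 11 of 12 H4 windows, in 1 of 16 H2B and 1 of 10 H3 windows, and in 8.25% of all 32851 windows of this length. The octamer was found in 7 of 16 H2A and 7 of 16 H2B windows, in 0 windows of the other types, and in 1.74% of all windows. CCAAT was found in every H1, H2A, H2B and H3 window and in 3 of 12 H4 windows, against 37.4% of all windows. AAACACA was in 5 of 6 H1, 2 of 16 H2A and 2 of 16 H2B windows, in 0 H3 or H4 windows, and in 7.18% of all windows. TATAAA was in 8 of 12 H4, 4 of 10 H3, 8 of 16 H2B, 10 of 16 H2A and 4 of 6 H1 windows and in 13.6% of all. A match describes letters in a window and does not show that a factor binds there.

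Tex10 itself, the targeted gene, stood at 77.3 and 82.1 FPKM (fragment density along the transcript relative to library size) in shLuci and at 11.6 and 13.4 in shTex10, so that 15.7% of its level remained. Named genes at 1 FPKM or more numbered between 11533 and 12003 per library. The tables hold no read totals, and relative depth, estimated from the value of 1 read, was 106%, 100%, 88.7% and 97.8% in shLuci replicates 1 and 2 and shTex10 replicates 1 and 2, with shLuci replicate 2 as the base. Of 10 ES cell markers 8 were called lower in shTex10, beside 31.8% of all tested genes, while Pou5f1 was at 549 FPKM or more in every library. Trophoblast markers summed to 34.1 and 32.2 FPKM in shLuci and to 88.1 and 85.4 in shTex10. Of 6 tested 6 were called higher, beside 19.8% of all tested genes. Of the 8 markers none was at 0 in every library, and Elf5 reached at most 0.08 FPKM. Primitive endoderm markers summed to 3.29 to 3.89 FPKM in shLuci and 5.97 to 6.29 in shTex10, with 1 tested of 7 (Dab2, called higher). Fibroblast markers summed to 28.9 to 43.4 over the 4 libraries, with 0 called higher and 1 called lower of 4 tested of 8. The part of these other cell types in the histone values was not tested.

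The summed level of all 63 clustered histone genes was 85.6 and 79.0 FPKM in shLuci replicates 1 and 2, and 160.1 and 143.0 FPKM in shTex10 replicates 1 and 2. Both shTex10 libraries lay above both controls. Means of the summed level were 82.3 ± 4.68 for shLuci and 152 ± 12.1 for shTex10 libraries (SD, n = 2 each), a ratio of 1.84, and the ratio was 1.87 between the libraries numbered 1 and 1.81 between those numbered 2. With 2 libraries against 2, an exact two-sided permutation test cannot go below p = 0.3333, so the sum was not tested. These levels are low: H3f3a, an H3.3 gene outside the clusters whose mRNA is polyadenylated, alone stood at 524 FPKM in shLuci.

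By histone type, the ratio of shTex10 to shLuci was between 1.44 and 2.54. H3 genes summed to 9.26 and 9.09 FPKM in shLuci and to 22.1 and 24.4 in shTex10, a ratio of 2.54. H4 genes summed to 30.0 and 28.6 FPKM in shLuci and to 68.9 and 57.4 in shTex10, a ratio of 2.16. For H3 and H4, every shTex10 sum was far above every control sum. H2A genes summed to 13.1 and 13.6 FPKM in shLuci and to 20.6 and 20.4 in shTex10, a ratio of 1.54. The 5 H1 genes summed to 10.3 and 9.32 FPKM in shLuci and to 15.4 and 14.2 in shTex10, a ratio of 1.51. H2B genes summed to 22.0 and 17.8 FPKM in shLuci and to 32.3 and 25.2 in shTex10, a ratio of 1.44. The groups did not overlap for any of these 3 types either, but the gap was narrowest for H2B. The differences between the types' ratios were not tested. Without H4 genes the ratio over the remaining names was 1.67, without Hist1h4i it was 1.84, and without Hist1h2bc, the H2B gene with the highest level, it was 1.91.

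**Figure D1:**
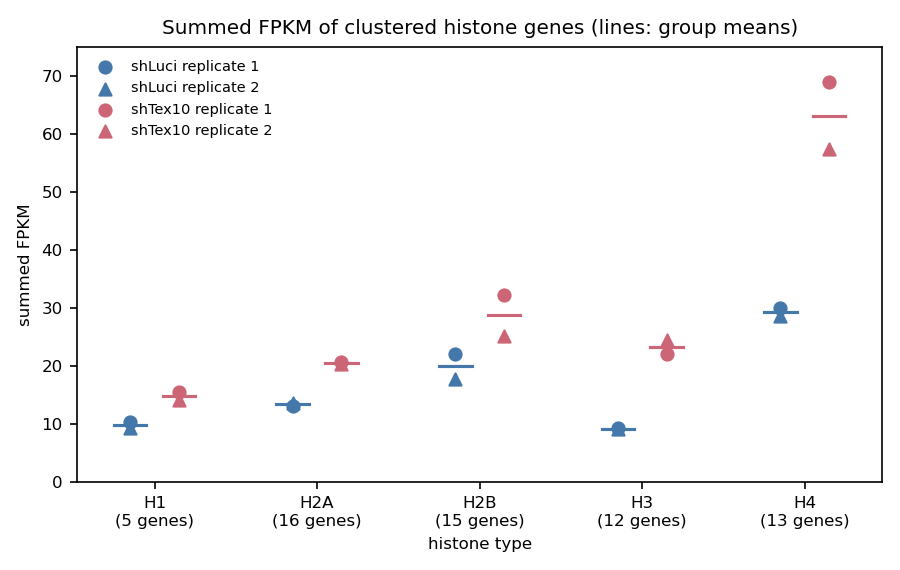
Summed FPKM of the clustered histone genes of each type (vertical axis, linear from 0) by histone type (horizontal axis), with 1 point per library and short lines for the group means (n = 2). In all 5 types both shTex10 points lie above both shLuci points, and the gap is widest in ratio for H3 (2.54) and H4 (2.16).

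By cluster, the ratio was highest for the large cluster on chromosome 13. Its 50 names, in rows that span chr13:21807632-24026720 (mm9, the build of the files), summed to 75.2 and 71.7 FPKM in shLuci and to 148.7 and 132.7 in shTex10, a ratio of 1.91. Cluster 2, with 9 names at chr3:96023839-96081700, summed to 6.59 and 4.34 FPKM in shLuci and to 6.89 and 6.00 in shTex10, a ratio of 1.18 with overlapping libraries. Cluster 3, with 3 names at chr11:58762413-58773213, summed to 2.84 and 1.98 FPKM in shLuci and to 3.50 and 3.03 in shTex10, a ratio of 1.35. Cluster 4 is the single gene Hist4h4 at chr6:136750074-136752952, at 0.970 and 0.947 FPKM in shLuci and 1.09 and 1.29 in shTex10. All calls below were for genes of cluster 1 (20 of 28 tested), against 0 of 3, 0 of 2 and 0 of 1 tested in clusters 2, 3 and 4, and the difference between clusters was not tested.

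Of the 63 names, 34 had a mean of at least 1 FPKM over the 4 libraries and were tested with limma on log2(FPKM + 1), a scale that understates the change of low genes. Of these 34, 20 (58.8%) were higher in shTex10 at a Benjamini-Hochberg adjusted p under 0.05, 0 were lower and 14 were not called. Across all 11883 genes tested, 19.8% were called higher, 31.8% lower and 51.6% in either direction. The median log2 change was 0.61 for the 34 histone genes and -0.14 for all genes. Both shTex10 libraries lay above both controls for 26 of the 34 (76.5%), against 28.3% of all tested genes above and 48.1% below. Of the 34, 8 had a shLuci mean under 1 FPKM and passed the filter through their shTex10 values, and 5 of the 20 calls were among them. Of 27 names with a shLuci mean of at least 1 FPKM, 26 were tested and 15 were called higher. The name left out was Hist1h2af (means of 1.19 FPKM in shLuci and 0.385 in shTex10). It missed the filter through its low shTex10 values and was called lower without the filter. Within replicate number, 32 of 34 were higher in shTex10 for number 1 and 32 for number 2, 30 in both, with a median log2 change of 0.62 in each. Of all 11883 tested genes, 4602 and 4553 were higher and 4069 in both, with medians of -0.13 and -0.14. The p-values measure the spread between these 4 libraries only. Rescaled to the same sum over all rows, unnamed ones included, 6 of the 34 were called higher (Hist1h2ag, Hist1h2bj, Hist1h3c, Hist1h4a, Hist1h4b and Hist1h4m). Of all genes, 5.51% were then called higher and 7.51% in either direction. At a mean of at least 5 FPKM only 6 could be tested, and 3 were called higher. Of all genes, 15.1% were called higher under that filter and 51.7% in either direction.

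**Figure D2:**
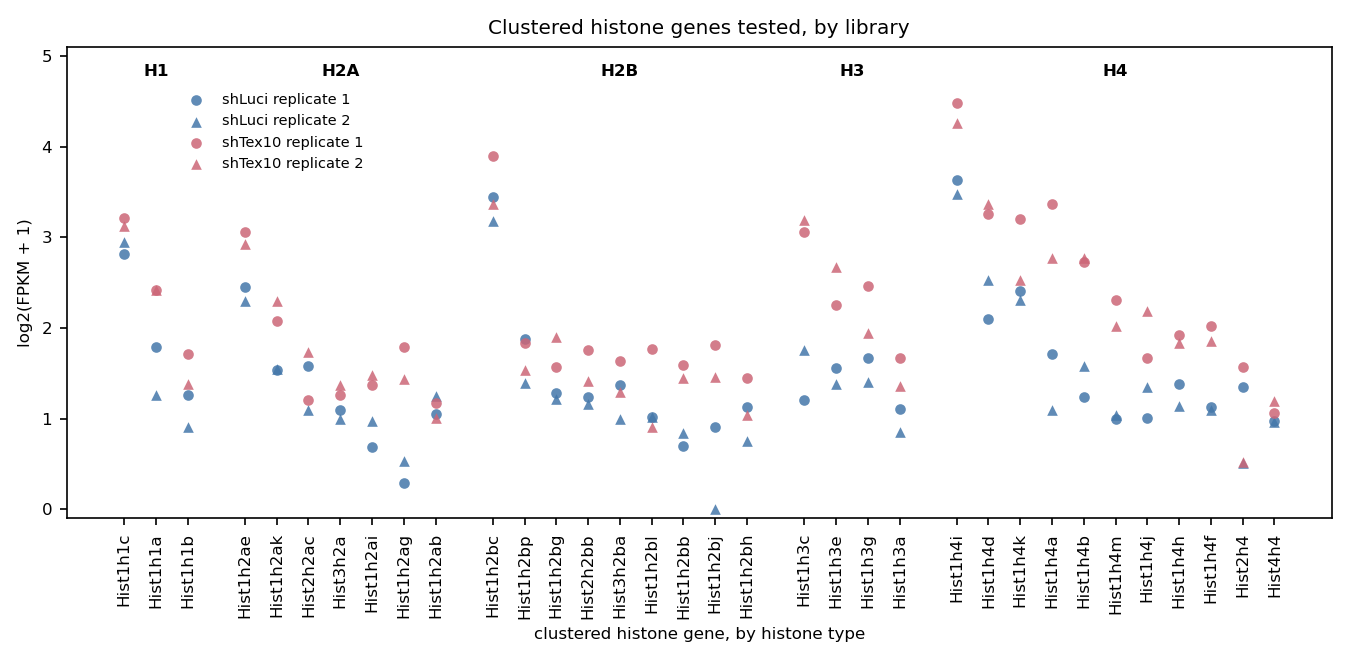
Level of each of the 34 tested clustered histone genes in each library, as log2(FPKM + 1) on the vertical axis, with genes grouped by histone type on the horizontal axis. Circles are replicate 1 and triangles replicate 2; both shTex10 points lie above both shLuci points for 26 of the 34 genes.

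H4 and H3 pair in the tetramer at the centre of the nucleosome, and genes of these 2 types held 12 of the 20 calls. Of 11 H4 genes tested 8 were higher, with a median log2 change of 0.81. Hist1h4i (chr13:22132685-22133221, mm9), the highest of all clustered histone genes, was at 11.4 and 10.1 FPKM in shLuci and at 21.3 and 18.2 in shTex10. Both shTex10 libraries were clearly above the controls. Its log2 change was 0.81 (SE 0.12, limma adjusted p = 0.00313). Hist1h4a (chr13:23852715-23853026) was at 2.29 and 1.14 FPKM in shLuci and at 9.33 and 5.82 in shTex10, and Hist1h4b (chr13:23848890-23849201) was at 1.37 and 1.99 in shLuci and 5.65 and 5.82 in shTex10. The groups were far apart in both genes, with a wider spread between replicates for Hist1h4a. The log2 change was 1.66 for Hist1h4a (SE 0.27, limma adjusted p = 0.00477) and 1.34 for Hist1h4b (SE 0.13, limma adjusted p = 0.00101). Hist1h4m (chr13:21903615-21904019) was at 0.995 and 1.05 FPKM in shLuci and at 3.97 and 3.07 in shTex10, again without overlap (log2 change 1.15, SE 0.12, limma adjusted p = 0.00125).

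The other called H4 genes were lower or changed less. Hist1h4d was at 3.28 and 4.78 FPKM in shLuci and at 8.55 and 9.31 in shTex10. Hist1h4f was at 1.19 and 1.14 FPKM in shLuci and at 3.08 and 2.62 in shTex10. In both genes the shTex10 libraries were well above the controls. Hist1h4h was at 1.61 and 1.20 FPKM in shLuci and at 2.79 and 2.56 in shTex10, and Hist1h4j was at 1.01 and 1.54 in shLuci and 2.18 and 3.56 in shTex10. Neither gene's groups overlapped, although the 2 shTex10 values of Hist1h4j were far from each other. Across these 4 genes the log2 change ran from 0.62 (Hist1h4h) to 1.00 (Hist1h4d). The call for Hist1h4j was lost in 4 alternatives, among them the highest row per gene name. Hist1h4j sums 2 rows that disagree. 1 row went from 0.280 and 0.285 FPKM in shLuci to 1.08 and 2.33 in shTex10. The other row was at 0.733 and 1.26 in shLuci and 1.10 and 1.23 in shTex10, with overlap. The 3 H4 genes that were not called were Hist1h4k, Hist4h4 and Hist2h4. Hist1h4k was at 4.32 and 3.94 FPKM in shLuci and at 8.19 and 4.76 in shTex10 (limma adjusted p = 0.105). Hist2h4 was at 1.54 and 0.426 FPKM in shLuci and at 1.96 and 0.435 in shTex10. In Hist2h4 the libraries separated by replicate number and not by hairpin, and it was not called. Without shTex10 replicate 1, which leaves a lone shTex10 library assumed to vary like the controls, it was called lower, so nothing is read from that call. Hist4h4, given above, was higher in both shTex10 libraries by little (log2 change 0.16, limma adjusted p = 0.202). Hist2h4 and Hist4h4 had shLuci means of 0.985 and 0.959 FPKM and passed the filter through their shTex10 values.

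All 4 H3 genes tested were higher, with a median log2 change of 0.83. Hist1h3c (chr13:23836911-23837390) was at 1.31 and 2.37 FPKM in shLuci and at 7.34 and 8.16 in shTex10. The shTex10 values stood far above both controls, and the log2 change was 1.65 (SE 0.19, limma adjusted p = 0.00158). Hist1h3e was at 1.94 and 1.60 FPKM in shLuci and at 3.77 and 5.36 in shTex10. Hist1h3g was at 2.18 and 1.65 FPKM in shLuci and at 4.50 and 2.85 in shTex10. Hist1h3a was at 1.16 and 0.807 FPKM in shLuci and at 2.19 and 1.56 in shTex10. Its shLuci mean was 0.983 FPKM, so it was tested only through its shTex10 values. Groups did not overlap in any of the 3, and the spread within shTex10 was wide for Hist1h3e and Hist1h3g. Their log2 changes were 0.99 (SE 0.16), 0.66 (SE 0.19) and 0.53 (SE 0.15), and the calls for Hist1h3g and Hist1h3a were lost under quantile normalization and without the filter.

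H2A and H2B form the dimers that flank the H3 and H4 tetramer. Of 7 H2A genes tested 4 were higher, with a median log2 change of 0.60. Hist1h2ag (chr13:22134346-22134818) was at 0.224 and 0.443 FPKM in shLuci and at 2.46 and 1.70 in shTex10. It passed the filter only through its shTex10 values, which were several times the controls (log2 change 1.20, SE 0.15, limma adjusted p = 0.00221). Hist1h2ae was at 4.45 and 3.92 FPKM in shLuci and at 7.35 and 6.58 in shTex10. Hist1h2ak was at 1.90 and 1.92 FPKM in shLuci and at 3.22 and 3.93 in shTex10. Hist1h2ai was at 0.613 and 0.962 FPKM in shLuci and at 1.58 and 1.80 in shTex10, and like Hist1h2ag it passed the filter only through its shTex10 values. In these 3 genes the shTex10 libraries lay above the controls, with log2 changes between 0.60 and 0.65. Hist3h2a was at 1.14 and 0.994 FPKM in shLuci and at 1.40 and 1.59 in shTex10 (log2 change 0.27, limma adjusted p = 0.0608). Hist2h2ac was at 1.99 and 1.14 FPKM in shLuci and at 1.30 and 2.33 in shTex10. Hist1h2ab, at 1.08 and 1.38 FPKM in shLuci and 1.25 and 1.00 in shTex10, was the one tested histone gene with a negative log2 change (-0.07, 0.06 when scaled to the same sum over named genes). Hist2h2ac and Hist1h2ab overlapped between the groups.

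Of 9 H2B genes tested 3 were higher, with a median log2 change of 0.32. Hist1h2bb and Hist1h2bj, called, and Hist1h2bh, not called, had shLuci means under 1 FPKM and passed the filter through their shTex10 values. Hist1h2bb was at 0.620 and 0.791 FPKM in shLuci and at 2.01 and 1.73 in shTex10. Hist1h2bg was at 1.43 and 1.33 FPKM in shLuci and at 1.98 and 2.73 in shTex10. Both genes were higher in each shTex10 library than in each control, with log2 changes of 0.75 (SE 0.10) and 0.49 (SE 0.13), and the call for Hist1h2bg was lost without the filter, under quantile normalization and without shTex10 replicate 2. Hist1h2bj was at 0.883 and 0 FPKM in shLuci and at 2.51 and 1.76 in shTex10. Its control libraries disagreed, and its log2 change of 1.18 (SE 0.30, limma adjusted p = 0.0214) was not called at a pseudocount of 0.1 or without the filter. The most abundant H2B gene, Hist1h2bc (chr13:23776068-23784349), was at 9.92 and 8.09 FPKM in shLuci and at 14.0 and 9.30 in shTex10. The lower shTex10 value fell between the controls, and the gene was not called (log2 change 0.32, SE 0.20, limma adjusted p = 0.226). Hist2h2bb was at 1.37 and 1.23 FPKM in shLuci and at 2.39 and 1.67 in shTex10, without overlap but not called (limma adjusted p = 0.0562). Hist1h2bh was at 1.18 and 0.687 FPKM in shLuci and at 1.74 and 1.05 in shTex10, and Hist3h2ba was at 1.58 and 0.989 in shLuci and 2.1002 and 1.4448 in shTex10. In both genes the libraries numbered 1 were the higher of each group, and the groups overlapped. Hist1h2bp was at 2.67 and 1.63 FPKM in shLuci and at 2.57 and 1.89 in shTex10. Hist1h2bl was at 1.02 and 1.03 FPKM in shLuci and at 2.41 and 0.878 in shTex10. Neither gene separated the groups.

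The H1 genes encode linker histones, and 1 of 3 tested was higher. Hist1h1a was at 2.46 and 1.40 FPKM in shLuci and at 4.34 in each shTex10 library (log2 change 0.89, SE 0.18, limma adjusted p = 0.00972). Hist1h1c (chr13:23830676-23832236), the most abundant H1 gene, was at 6.04 and 6.75 FPKM in shLuci and at 8.26 and 7.75 in shTex10. Hist1h1b was at 1.40 and 0.877 FPKM in shLuci and at 2.29 and 1.60 in shTex10. Groups did not overlap in any of the 3 genes, while Hist1h1c (log2 change 0.29, limma adjusted p = 0.0567) and Hist1h1b (log2 change 0.46, limma adjusted p = 0.0658) missed the threshold.

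**Figure D3:**
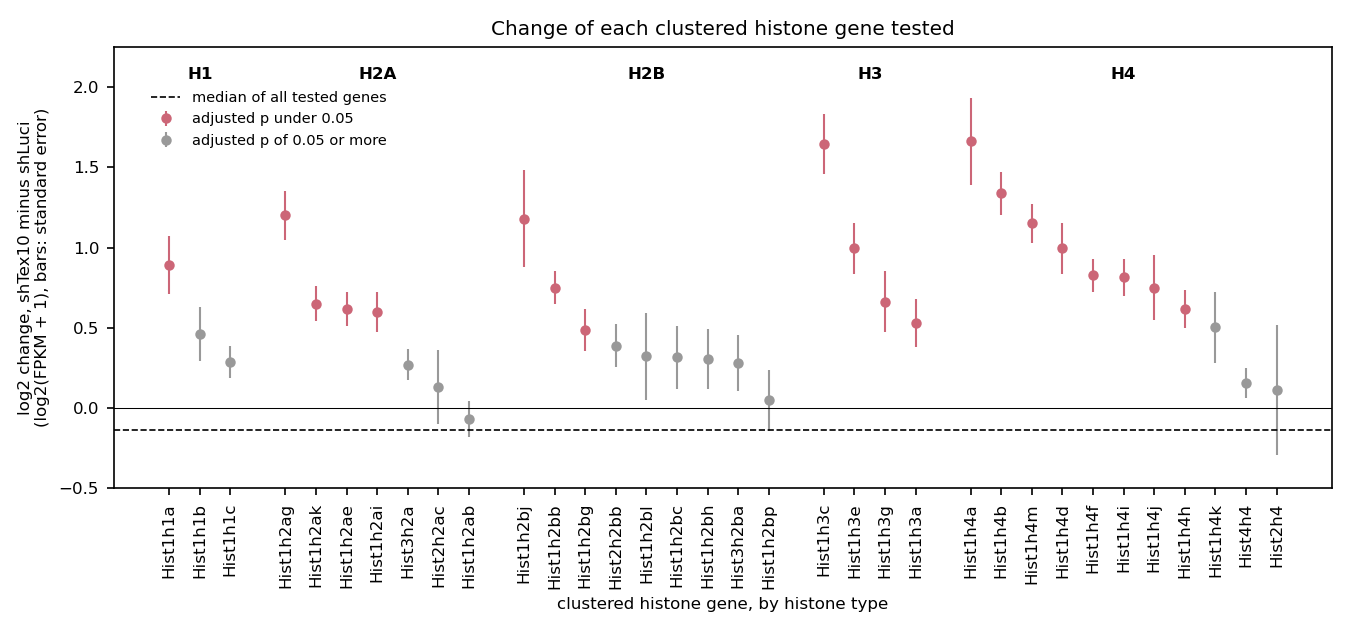
Log2 change of each tested clustered histone gene (shTex10 minus shLuci on log2(FPKM + 1), vertical axis) by histone type (horizontal axis), with standard errors from limma as bars and the median of all tested genes (-0.14) dashed. The 20 called genes, coloured, include all 4 H3 genes and 8 of 11 H4 genes but 3 of 9 H2B genes.

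Below the filter were 29 names, of which 5 were at 0 in all libraries (Hist1h2ad, Hist1h2ao, Hist1h2br, Hist1h3b and Hist1h4n). Of the other 24, 10 were higher in both shTex10 libraries, 4 lower and 10 overlapping. Over the 7424 genes below the filter and above 0 in some library, 36.7% were higher and 16.2% lower, so the 10 of 24 is near the share of low genes in general. Hist1h3i, which missed the filter narrowly, was at 0.333 and 0.630 FPKM in shLuci and at 1.20 and 1.80 in shTex10. Hist1h3d was at 0.625 and 0.437 FPKM in shLuci and at 0.814 and 1.79 in shTex10, and Hist1h3f was at 0.456 and 0.473 in shLuci and 1.08 and 0.966 in shTex10. These H3 genes and Hist2h3c1 (0.477 and 0.516 FPKM in shLuci, 0.721 and 0.837 in shTex10) were higher in each shTex10 library than in each control. Against that direction, Hist1h2af (chr13:23625780-23626172) was at 1.10 and 1.28 FPKM in shLuci and at 0.606 and 0.164 in shTex10. Hist1h2bn was at 0.359 and 0.687 FPKM in shLuci and at 0 in both shTex10 libraries. Both genes were lower in each shTex10 library, as were Hist2h2ab and Hist2h2be, and without the filter on low values Hist1h2af and Hist1h2bn were called lower. Hist1h2bm was at 0.715 and 1.03 FPKM in shLuci and at 0.228 and 1.40 in shTex10. The undivided row of Hist1h1e, Hist1h2be and Hist1h2bf was at 0.866 and 0.624 FPKM in shLuci and at 0.802 and 1.42 in shTex10. Both overlapped between groups.

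Few reads lie behind these values. For 19 histone rows whose locus is the coding length alone (312 to 411 bp), the value of 1 read could be read off the smallest steps between FPKM values, and 1 read was worth 0.285 FPKM at 312 bp and 0.146 at 411 bp in shLuci replicate 2. Hist1h4b stood at an estimated 5.11 and 7 reads in shLuci and 17.6 and 20 in shTex10. Hist1h4a stood at 8.54 and 4 reads in shLuci and 29.1 and 20 in shTex10. Hist1h3e stood at 14.1 and 11 reads in shLuci and 23.0 and 36 in shTex10. So these genes, all past the threshold, rested on at most 36 reads in a library. For Hist1h2bj the estimate was 5.47 and 0 reads in shLuci and 13.0 and 10 in shTex10, and for Hist1h2af it was 7.29 and 8 in shLuci and 3.35 and 1 in shTex10. In shLuci replicate 2 the value of 1 read was chosen so that all values at these lengths, histone ones included, were whole within 0.03 reads. Its 13 of 13 whole histone values are thus by construction. In the other libraries the value was scaled to make the most values in other rows of these lengths whole. The 9 of 9 and 8 of 8 whole values there in shLuci and shTex10 replicates 1 are thus fitted. Histone values had no part in that scaling. Of those above 0, 14 of 14 were whole in shTex10 replicate 2, against 0 of 13 and 1 of 14 in shLuci and shTex10 replicates 1. Histone values were thus mostly fractional in both libraries numbered 1 and whole in shTex10 replicate 2. The within-number values above do not mix the numbers.

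**Figure D4:**
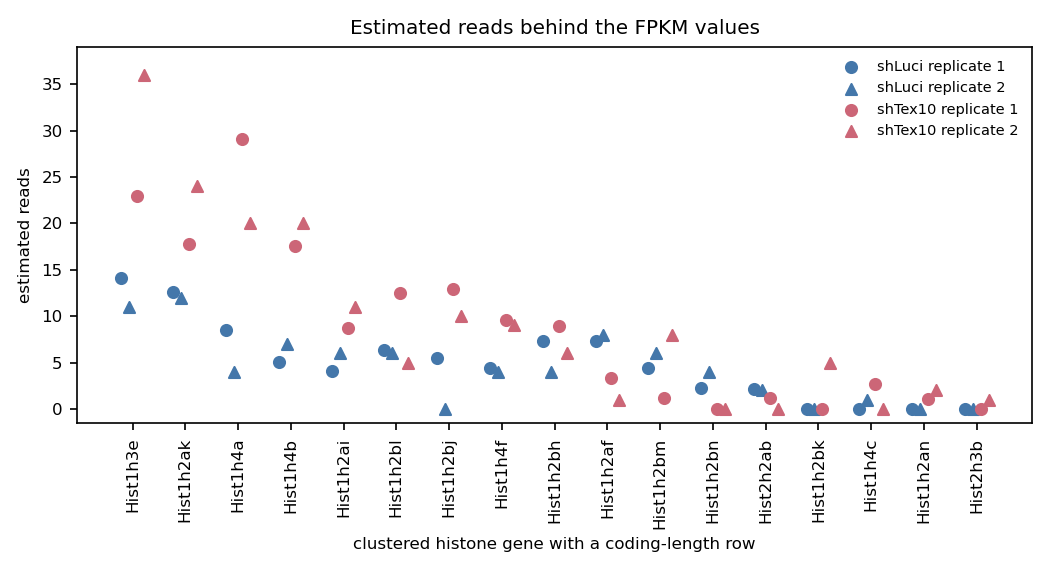
Estimated reads (vertical axis, linear) in each library for the 17 clustered histone genes with a coding-length row and a value above 0, ordered by their mean (horizontal axis). Estimates run from 0 to 36 reads. Hist1h3e, Hist1h2ak, Hist1h4a, Hist1h4b, Hist1h2ai, Hist1h2bj, Hist1h4f and Hist1h2an lie higher in both shTex10 libraries. Hist1h2af, Hist1h2bn and Hist2h2ab lie lower in both, and the other genes overlap between the groups.

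Near-identical copies make single genes uncertain. Over windows of 100 bases, the read length, 6 tested genes (Hist1h2ab, Hist1h2ag, Hist1h2ai, Hist1h2bl, Hist1h4k and Hist1h4m) had at least 50% of their GENCODE transcript windows in common with another gene. Of these 6, 3 were called, with a median log2 change of 0.55. Of the 28 genes that shared fewer windows, 17 were called, with a median of 0.62. Among the 3 calls, Hist1h2ag and Hist1h2ai passed the filter only through their shTex10 values, which leaves Hist1h4m. Among the 17, Hist1h2bb, Hist1h2bj and Hist1h3a passed it that way. The difference between these 2 classes was not tested. In addition, Hist1h2bg, Hist1h2ad, Hist1h3d, Hist1h4d and the undivided row carry a single locus of 51159 bp in the tables, so their own positions are not given there.

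The transcript models were then set beside the changes. Of 12 tested genes whose GENCODE transcript ends within 100 bases after the stem-loop shown above, 9 were called, with a median log2 change of 0.79. The 12 include Hist1h3c, Hist1h4b, Hist1h4m and Hist1h2ag, called, and Hist1h2ab, Hist1h2bp and Hist2h2ac, not called. Their log2 changes ran from -0.07 to 1.65. In 12 genes a transcript model runs on for more than 100 bases, and 6 were called, with a median of 0.40 and a range of 0.11 to 1.00. Among these 12 were Hist1h4d, Hist1h3e, Hist1h4i and Hist1h4j, called, and Hist1h1c, Hist4h4 and Hist3h2a, not called. In 10 genes the model holds no match, often because it stops at the coding sequence, and 5 were called with a median of 0.55. Summed FPKM of the genes with short models went from 15.1 and 13.9 in shLuci to 37.1 and 34.2 in shTex10. For genes with long models it went from 36.0 and 34.1 to 61.7 and 59.3. The model is the annotation's and does not show where the reads lie. The FPKM values come from the authors' rows, whose lengths can differ from it. Hist1h3e, with a long model here, has a row of 411 bp. Hist1h4b, with a short model that holds the stem-loop, has a row of 312 bp, the coding length alone. Among the 9 called genes with short models, Hist1h2ag, Hist1h2bb, Hist1h2bj and Hist1h3a passed the filter only through their shTex10 values. So did Hist1h2ai, called, among those without a match. With long models, Hist1h2bh, Hist2h4 and Hist4h4 passed it that way and were not called. The counts and medians of the classes thus depend in part on the filter. The grouping was made with the changes known, so the difference between the classes was not tested.

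Promoter letters were set beside the changes in the same way, again with no test. Genes that passed the filter only through their shTex10 values are included here too. Of 10 tested genes with GGTCCG in their window, as in Hist1h4i and Hist1h4b above, 7 were called (median log2 change 0.78), and of 21 without it 12 were called (0.60). Of 7 with the octamer, as in Hist1h2bg, 3 were called (0.39), and of 24 without it 16 were called (0.71). These classes overlap with the histone types: all but 1 of the tested genes with GGTCCG were H4 genes, and all with the octamer were H2A or H2B genes. Divergent H2A and H2B neighbours whose windows overlap formed 8 pairs. Hist1h2ag and Hist1h2bj, whose windows overlap by 252 bases, were both called, with log2 changes of 1.20 and 1.18, but both had passed the filter only through their shTex10 values. Hist1h2ae and Hist1h2bg, overlapping by 279 bases, were both called at 0.62 and 0.49. In the pair of Hist1h2ai and Hist1h2bl, Hist1h2ai was called higher and Hist1h2bl was not called. In the pair of Hist1h2ak and Hist1h2bn the partners differed, since Hist1h2ak was called higher and Hist1h2bn was at 0 in both shTex10 libraries.

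The chromosome 13 span holds 52 other named genes, of which 5 passed the filter on low values, with a median log2 change of -0.12. One of these 5, Abt1, an activator of basal transcription, was called higher, a share near the 19.8% of all tested genes. It was at 10.8 and 11.0 FPKM in shLuci and at 16.1 and 16.9 in shTex10 (log2 change 0.56, SE 0.09, limma adjusted p = 0.00431).

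Histone variants are encoded outside the clusters, and many of their mRNAs carry poly(A) tails and are made outside S phase too. Of 11 tested variants 0 were called higher and 6 lower, beside 19.8% higher and 31.8% lower among all tested genes. Their median log2 change was -0.36. In 4 of the alternatives 1 variant was called higher, not always the same one. It was H3f3b under quantile normalization and with the replicate block, H1f0 with the same sum over named genes, and H2bfm without the filter. H2afz, which encodes H2A.Z, was at 1226 and 1565 FPKM in shLuci and at 607 and 802 in shTex10. H2afx, which encodes the DNA damage variant H2A.X, was at 222 and 159 FPKM in shLuci and at 115 and 83.3 in shTex10. Both were lower in each shTex10 library, with log2 changes of -0.99 (SE 0.18) and -0.93 (SE 0.21). The macroH2A genes H2afy2 (log2 change -1.14) and H2afy (-0.62), the H3.3 gene H3f3a (-0.58) and the centromeric H3 gene Cenpa (-0.36) were also called lower. The second H3.3 gene, H3f3b, was at 353 and 401 FPKM in shLuci and at 377 and 438 in shTex10, and H1f0, a linker histone of differentiating cells, was at 12.6 and 12.0 in shLuci and 14.0 and 12.8 in shTex10. Neither of these was called in the main fit. H2bfm, an H2B-like gene below the filter, was at 0.179 and 0.103 FPKM in shLuci and at 1.01 and 1.19 in shTex10, the higher levels being in both shTex10 libraries.

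Of 28 tested genes for histone mRNA synthesis and processing 17 were called lower and 2 higher, with a median log2 change of -0.40, again beside 31.8% lower and 19.8% higher among all genes. Slbp, which encodes the protein that binds the stem-loop, was at 82.1 and 92.3 FPKM in shLuci and at 49.7 and 57.3 in shTex10 (log2 change -0.70, SE 0.11, limma adjusted p = 0.00473). Its groups did not overlap. The 3 others with the smallest p in the list were the cap-binding gene Ncbp1 (-0.56) and the cleavage factor genes Cstf2 (-0.64) and Sympk (-0.70). Npat, the coactivator of histone gene transcription at histone locus bodies, was at 10.2 and 12.3 FPKM in shLuci and at 9.02 and 10.0 in shTex10, and Casp8ap2 (FLASH), which acts in histone pre-mRNA processing, was at 17.1 and 21.2 in shLuci and 12.9 and 15.8 in shTex10. Neither was called (limma adjusted p = 0.186 and 0.0693). The genes called higher were Zfp473, a U7 particle-associated zinc finger gene at 8.85 FPKM in shLuci and 11.7 in shTex10, and Zcchc6, a uridylyltransferase gene, at 9.70 and 14.1.

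Of 23 histone chaperone genes tested 9 were called lower and 2 higher, with a median log2 change of -0.28, beside 31.8% lower and 19.8% higher among all tested genes. Anp32e, an H2A.Z chaperone, went from 121 to 41.5 FPKM (-1.52), and the FACT subunit gene Ssrp1 from 149.8 to 70.8 (-1.07). Chaf1b, a subunit of CAF-1, which deposits H3 and H4 at replication forks, was also called lower (-1.05), as was Hira (-0.77), while Daxx (0.45) and Dnajc9 (0.40) were called higher. Of 30 DNA replication genes tested 23 were called lower and 0 higher, against the same 31.8% and 19.8% of all tested genes. Their median was -0.68, beside -0.14 for all genes. Ccne1, the cyclin of S phase entry, was at 87.5 and 85.3 FPKM in shLuci and at 26.5 and 25.1 in shTex10. Pcna, the replication clamp, was at 499 and 513 FPKM in shLuci and at 236 and 266 in shTex10. Gins2 (-1.46) and Tk1 (-1.19) were lower as well. Clustered histone RNA in these libraries and the mRNAs of replication genes were thus called in opposite directions. Rescaled to the same sum over all rows, 0 variant, 0 histone mRNA processing, 1 chaperone and 2 replication genes were called lower. Whether the share of cells in S phase differed was not tested.

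Other RNAs without a poly(A) tail were given beside the histones. Of 18 listed, 15 were in the tables, 8 were tested, 1 was called higher and 0 lower, with a median log2 change of -0.08. Among all tested genes 19.8% were called higher and 31.8% lower. Terc, the telomerase RNA, was at 3.88 and 5.19 FPKM in shLuci and at 11.2 and 14.5 in shTex10 (log2 change 1.32, SE 0.17, limma adjusted p = 0.00226). Rn45s, the ribosomal RNA precursor, was at 2791 and 1603 FPKM in shLuci and at 2151 and 1252 in shTex10. Rmrp was at 9.53 and 12.1 FPKM in shLuci and at 18.7 and 8.54 in shTex10, and Scarna6 was at 2.24 and 5.96 in shLuci and 1.32 and 3.04 in shTex10. Rn45s and Scarna6 separated the replicate numbers within each group rather than the hairpins, and Rmrp separated neither. The list summed to 2863 and 1823 FPKM in shLuci and 2241 and 1528 in shTex10, most of it Rn45s in each library, and 6 of the 15 were at 0 in every library. The part of poly(A) selection in the histone values was not tested.

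**Figure D5:**
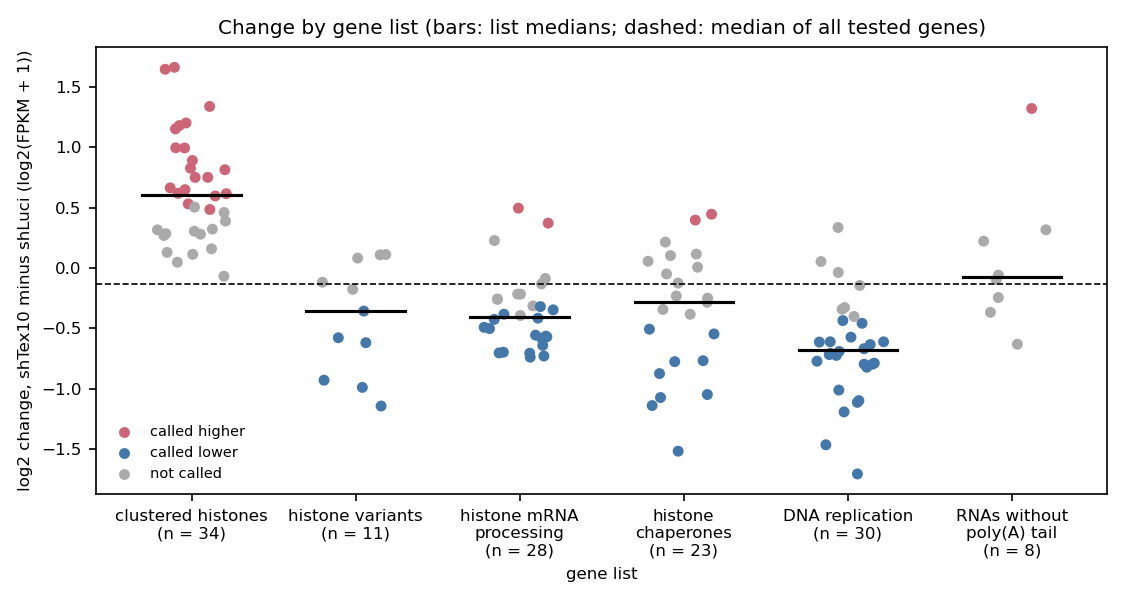
Log2 change (shTex10 minus shLuci on log2(FPKM + 1), vertical axis) of each tested gene in 6 lists (horizontal axis), coloured by call, with list medians as bars and the median of all tested genes (-0.14) dashed. The clustered histone genes centre at 0.61, and the medians of the other 5 lists lie between -0.68 and -0.08.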

How the data were processed

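RNA from 4 libraries of CCE cells was poly(A)-selected, made into libraries with the TruSeq kit and read as 100-bp single ends, per the labels' protocols. Tools listed in the submitters' processing notes are Bowtie2 2.1.0, TopHat2 2.0.10 and Cufflinks 2.1.1, with the build mm9. The annotation and the handling of multiply mapped reads and of strand were not given in the sources used here. Each library's deposited table holds FPKM as the authors computed them, with no counts. Values share the scaling to mapped fragments, so abundant rows can shift all others. The clustered histone genes and all gene lists were chosen with earlier results of these data known, so counts and medians over them are descriptions.

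Rows that shared a gene name were summed. Genes with a mean of at least 1 FPKM over the 4 libraries (11883) were fitted with limma 3.58.1 in R 4.3.3 on log2(FPKM + 1), with eBayes with trend and no replicate block, and Benjamini-Hochberg adjustment over all of them at a threshold of 0.05. The fit was tested on simulated data. Read values were estimated from rows of coding length, and this and the comparison within each replicate number were added after the data were seen; no counting intervals are given. Named were Tex10, every tested clustered histone gene, those below the filter with a mean of at least 0.5 FPKM, the 4 tested genes of each list with the lowest p-values, and Slbp, Npat, Casp8ap2, H3f3a, H3f3b, H2afz, H2afx and H1f0. Genes named besides these (the 5 at 0, Hist1h2bn, Hist2h2ab, Hist2h2be, Abt1, Zfp473, Zcchc6, Daxx, Dnajc9, H2bfm, Cenpa, H2afy and markers) were chosen after their values were seen. Alternatives (17) covered pseudocounts, filters, scaling, eBayes settings, the replicate block, row handling and leaving out each library. Stem-loops came from GENCODE M21 and promoters from RefSeq, both on GRCm38, and no position was converted from or to mm9.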

Additional observations from a re-analysis of the deposited data

How the results depend on the processing

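Over 17 alternatives, 5 of the 20 called genes (Hist1h2ag, Hist1h3c, Hist1h4a, Hist1h4b and Hist1h4m) passed the threshold in every alternative that tested them, and 15 did when rescaling over all rows was set aside. None of the 5 reached a mean of 5 FPKM, and Hist1h2ag passed the main filter only through its shTex10 values. Hist1h2ag and Hist1h4m share 76.2% and 88.1% of their 100-base windows with other genes. The number of clustered histone genes called higher was 3 at a mean of at least 5 FPKM, where 6 were tested, beside 15.1% of all genes. After rescaling over all rows, a sum dominated by unnamed rows, it was 6, beside 5.51% of all genes. It was 28 with the replicate number as a block, beside 27.0% of all genes. Leaving out a library leaves 1 sample in its group, which is assumed to vary like the other group. Counts of calls from such fits do not show that calls are stable. Called lower were 2 without the filter, where 34.8% of all genes were called in either direction. The median log2 change was 0.87 and 0.71 at pseudocounts of 0.1 and 0.5, 0.33 without the filter, 0.46 under quantile normalization, 0.74 when scaled to the same sum over named genes, and 0.51 to 0.68 when each library was left out. The ratio of sums was 1.78 with rescaling over all rows and 2.16 with the same sum over named genes. The median of all genes was -0.14, and 0.06 with the same sum over named genes, which called 3234 genes higher in place of 2350.

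The same-numbered deviations correlated at 0.33 over all genes. The labels do not say what a number marks, and with the block 75.1% of all genes were called. The clustered histone genes called with the block but not without it were Hist1h1b, Hist1h1c, Hist1h2bc, Hist1h2bh, Hist1h4k, Hist2h2bb, Hist3h2a and Hist3h2ba, and Npat, Casp8ap2 and H3f3b were called as well. List counts moved as follows. With the block, histone variants had 1 higher, chaperones 5 higher and 15 lower, and RNAs without a poly(A) tail 2 higher and 2 lower. Under quantile normalization, variants had 1 higher and 3 lower, histone mRNA processing 7 lower, chaperones 4 higher and DNA replication 1 higher. With the same sum over named genes, variants had 1 higher and 3 lower, processing 6 lower and DNA replication 2 higher. With rescaling over all rows, variants had 0 lower, processing 0 higher and 0 lower, chaperones 0 higher and 1 lower, and DNA replication 2 lower. Without the filter, variants had 1 higher (H2bfm) and RNAs without a poly(A) tail 1 lower. When each library was left out, processing had 0 to 2 higher, chaperones 1 higher each time, DNA replication 0 to 1 higher, and RNAs without a poly(A) tail 2 to 3 higher and 2 to 3 lower.

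Single uncalled genes changed sign. Under quantile normalization the log2 change was -0.10 for Hist1h2bp, -0.038 for Hist2h2ac, -0.10 for Hist2h4 and -0.024 for Hist4h4, and with the same sum over named genes it was 0.057 for Hist1h2ab. When each library was left out in turn, the log2 change ran from -0.16 to 0.029 for Hist1h2ab, from -0.11 to 0.75 for Hist1h2bl, from -0.19 to 0.29 for Hist1h2bp, from -0.14 to 0.40 for Hist2h2ac, from -0.41 to 0.64 for Hist2h4, from -0.30 to 0.75 for Rmrp and from -0.77 to 0.034 for Rn45s. The causes were not tested, other than fewer genes or samples by construction. Depth limits single genes, with at most 36 estimated reads in a row of coding length.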
